A study of Mus musculus with 6 samples.

Results

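The genes described here encode the proteins that coat lipid droplets and the lipases that empty them: the perilipins Plin2, Plin3, Plin4 and Plin5, the CIDE proteins Cidea and Cidec, the lipases Pnpla2, Lipe and Mgll, and G0s2, an inhibitor of Pnpla2. The members were named as a list of 10 genes among the 49315 of the count table, and 9 of the 10 had enough counts to be tested. RNA sequencing was done on the whole hearts of 6 C57BL/6 mice, 3 conditional knock-in hearts with the Txnip C247S mutation and 3 wild-type hearts. The labels give the MerCreMer recombinase and 4-hydroxytamoxifen, the ligand that activates it, in one treatment entry that stands for both genotypes. They do not give the promoter that drives the recombinase, nor sex, age or litter. Every sample is a heart of a different mouse, so the p-values measure the spread between animals.

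A lipid droplet is a store of triglyceride wrapped in a single layer of phospholipid, on which perilipins sit and control the access of lipases. Triglyceride is broken down stepwise, by Pnpla2 (adipose triglyceride lipase) to diglyceride, by Lipe (hormone-sensitive lipase) to monoglyceride and by Mgll (monoglyceride lipase) to glycerol and free fatty acid. Heart muscle lives largely on fatty acids, keeps few and small droplets, and turns their triglyceride over quickly. Txnip, the mutated gene, encodes an arrestin-family protein that binds thioredoxin through the cysteine changed here and that also restrains glucose uptake.

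Library totals ran from 14146048 to 15620476 counts, and the levels below are in CPM, counts scaled to a common library size with TMM factors. Txnip itself had 437.7, 390.9 and 429.1 CPM in the knock-in hearts, against 722.7, 790.6 and 740.4 CPM in the wild-type hearts. Its RNA was lower in the knock-in hearts, with a fold change of 0.558 (log2 −0.84, SE 0.091, edgeR quasi-likelihood adjusted p = 0.00379, n = 3 each). Without knock-in replicate 3 or wild-type replicate 2 the adjusted p was 0.0642 or 0.0525. The sequence of Txnip overlaps that of Gm15441 on the opposite strand, which holds most of the 19.9% of its 31-base words found in other genes, and the strand setting of the counting is not given in the sources used here. The substitution changes the protein, so the RNA level does not check the genotype. Over all genes, 38 of 12777 were called at an adjusted p under 0.05, with 14 higher and 24 lower.

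None of the 9 tested members was called, beside 0.297% of all genes tested. Cidea, Plin2 and Plin3 stood apart from the other 6 in that the knock-in and wild-type values did not overlap: Cidea and Plin2 were higher in every knock-in heart than in any wild-type heart, and Plin3 was lower. The same 3 genes were those with an unadjusted p under 0.05, as were 4.74% of all tested genes on the higher side and 5.23% on the lower side. Ranges were apart for 8.18% of all tested genes with the knock-in hearts above and for 7.89% with the knock-in hearts below. DESeq2, run as an alternative, called Cidea and Plin2, beside 1.07% of all the genes it tested. Of the 9 members, 5 had a positive and 4 a negative log2 fold change, with a median of 0.029, against −0.0068 over all tested genes.

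**Figure D1:**
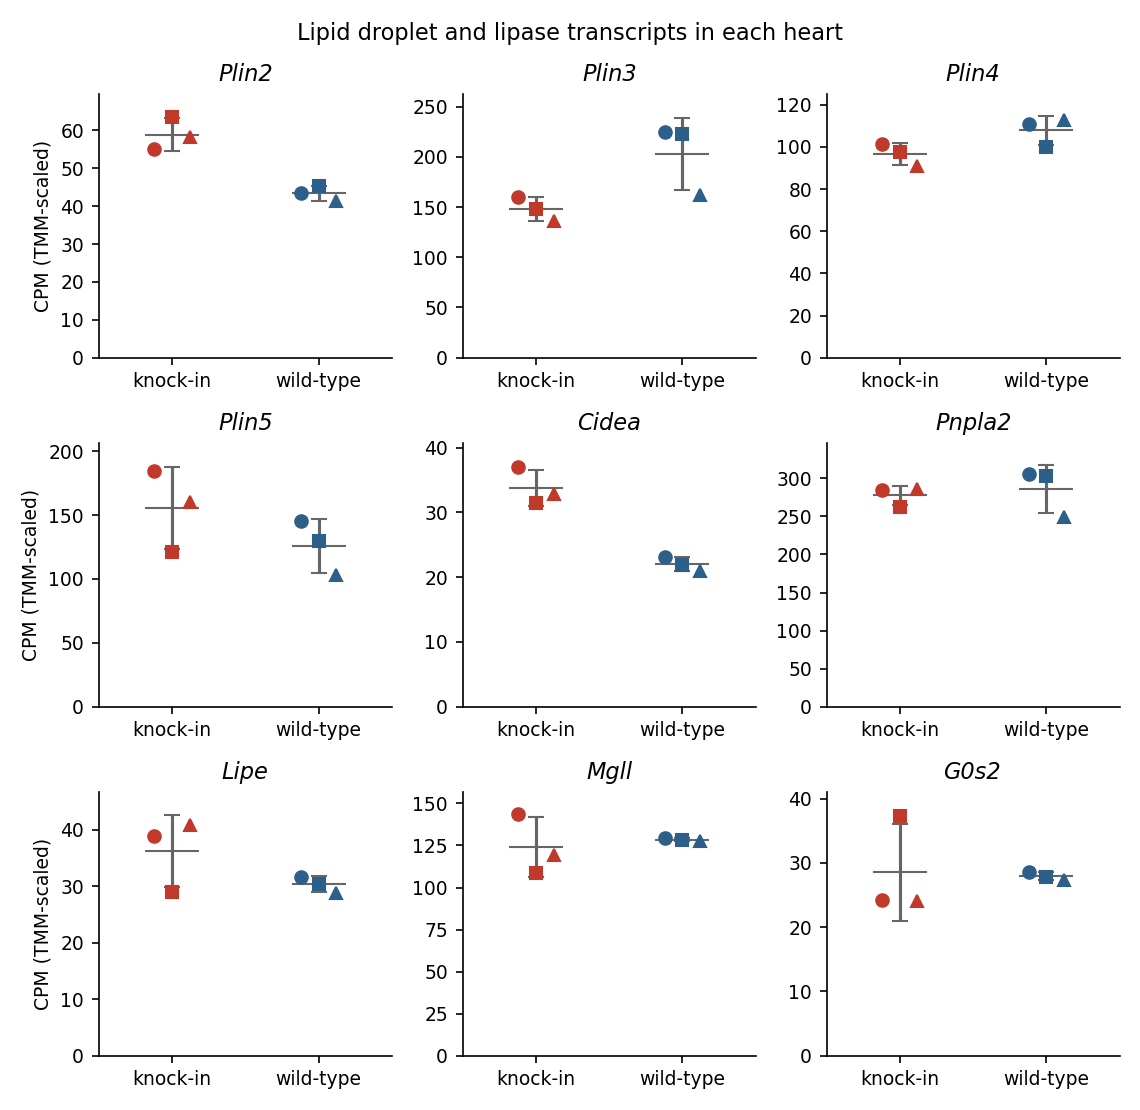
Level of each tested gene in each heart, in CPM after TMM scaling, with the knock-in hearts left of the wild-type hearts; circles, squares and triangles are replicates 1, 2 and 3, long bars are means and whiskers are SD (n = 3). Every vertical axis starts at 0. Cidea and Plin2 lie higher in all 3 knock-in hearts than in any wild-type heart, Plin3 lies lower, and the other 6 genes overlap.

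The opposite placing of Plin2 and Plin3 is the reason their promoter sequences are shown. Both come from RefSeq on GRCm38.p6, from 250 bases before to 20 bases after the transcription start, written 5′ to 3′ along the gene. Plin2 is on the minus strand at chr4:86670040-86670309, and Plin3 is on the minus strand at chr17:56290492-56290761. Capitals mark a motif match on either strand. The motifs are AGGTCA, the half-site bound by PPARs and other nuclear receptors, and CACGTG, the E-box bound by MYC, USF and related factors.
Plin2: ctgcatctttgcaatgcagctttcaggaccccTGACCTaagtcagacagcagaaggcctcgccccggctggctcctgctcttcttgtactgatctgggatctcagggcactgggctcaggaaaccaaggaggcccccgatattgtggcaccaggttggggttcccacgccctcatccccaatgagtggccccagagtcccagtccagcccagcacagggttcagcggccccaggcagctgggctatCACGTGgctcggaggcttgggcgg
Plin3: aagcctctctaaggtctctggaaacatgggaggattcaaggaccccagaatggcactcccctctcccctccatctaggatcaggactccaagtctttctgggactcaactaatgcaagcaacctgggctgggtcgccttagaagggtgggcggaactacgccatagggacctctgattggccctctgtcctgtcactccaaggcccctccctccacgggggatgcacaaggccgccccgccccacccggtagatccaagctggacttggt
The Plin2 window holds 1 AGGTCA match, which begins 218 bases before the start, and 1 CACGTG match, which begins 4 bases before the start and runs across it. The Plin3 window holds neither, but its RefSeq start lies inside the gene as GENCODE draws it, which runs upstream to base 56292873 of chromosome 17, and that other start was not searched. RefSeq windows were at hand for 9 of the 10 genes, 13 windows in all, since some genes have a second start. The gene without a window was Cidea, so its promoter was not searched. AGGTCA was found in 3 of these 13, those of Plin2 and both of Plin5, and in 15.0% of 32851 windows of all genes. CACGTG was likewise found in 3, those of Plin2, Lipe and Mgll, and in 6.57% of all windows. The full PPAR element in its strict form, AGGTCA twinned in the same direction with any 1 base between the copies, was in 0 of the 13 and in 0.0335% of all windows. A match describes the letters only, and its absence from these short windows says nothing of more distant sites.

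Plin2, the broadly expressed perilipin whose protein is kept stable by binding droplets, lies on chromosome 4 (86648386 to 86670060, minus strand, GRCm38). It had 55.0, 63.5 and 58.2 CPM in the knock-in hearts, against 43.6, 45.3 and 41.3 CPM in the wild-type hearts. The lowest knock-in heart lay well above the highest wild-type heart. Means were 58.9 ± 4.27 CPM in knock-in and 43.4 ± 1.99 CPM in wild-type hearts (SD, n = 3 each), a fold of 1.36 with a 95% interval of 1.16 to 1.59. On the log2 scale the difference was 0.44 (SE 0.10), with an unadjusted p of 0.00139 and an adjusted p of 0.146 in the edgeR fit; DESeq2 gave an adjusted p of 0.0431, and edgeR with 1 heart left out gave 0.116 to 0.514. Of the 31-base words in Plin2's longest transcript, 8.45% also occur in Gm12551, so a small part of its reads could have been counted elsewhere.

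Plin3, a perilipin that is soluble in the cytosol and moves onto newly formed droplets, lies on chromosome 17 (56277476 to 56292873, minus strand). It had 159.6, 147.8 and 135.9 CPM in the knock-in hearts, against 224.6, 222.4 and 161.8 CPM in the wild-type hearts. The ranges were only just apart, because wild-type replicate 3 lay close to knock-in replicate 1 while both other wild-type hearts lay far above. Means were 148 ± 11.9 CPM in knock-in and 203 ± 35.6 CPM in wild-type hearts, a fold of 0.728. The log2 difference was −0.46 (SE 0.13, 95% interval −0.75 to −0.16), with an unadjusted p of 0.0057 and an edgeR adjusted p of 0.245. With each heart left out in turn it ran from −0.60 (without wild-type replicate 3, adjusted p = 0.0976) to −0.38 (without wild-type replicate 1, adjusted p = 0.571), and the adjusted p reached 0.691 without knock-in replicate 3.

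Plin4 and Plin5 are neighbours of Plin3 on chromosome 17 and share its strand. Plin4 (56100591 to 56109803) is 1797 bases from Plin5 (56111601 to 56117596), and Plin5 is 159879 bases from Plin3. Plin4, a long perilipin found mainly in fat and muscle, had 101.5, 97.6 and 91.0 CPM in the knock-in hearts, against 110.7, 99.8 and 112.9 CPM in the wild-type hearts. The groups overlapped through knock-in replicate 1 and wild-type replicate 2. The log2 difference was −0.16 (SE 0.099, 95% interval −0.38 to 0.062, edgeR adjusted p = 0.669). Plin5, the perilipin of oxidative tissues, which holds Pnpla2 and its activator at the droplet and links droplets to mitochondria, had 184.5, 121.1 and 160.2 CPM in the knock-in hearts, against 145.2, 129.3 and 103.4 CPM in the wild-type hearts. Knock-in replicate 2 lay below 2 of the 3 wild-type hearts, and the knock-in values spanned 1.52-fold. The log2 difference was 0.30 (SE 0.17, 95% interval −0.068 to 0.67, adjusted p = 0.614), so these hearts do not settle whether Plin5 differed. The neighbours on chromosome 17 thus did not share a direction in the point estimates.

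Summed over the 4 genes, perilipin RNA was 459 ± 37.2 CPM in knock-in and 480 ± 54.2 CPM in wild-type hearts, so the difference was smaller than the spread. The balance between Plin3 and Plin2 was lower in every knock-in heart: there were 2.90, 2.33 and 2.33 Plin3 counts per Plin2 count in the knock-in hearts, against 5.15, 4.91 and 3.91 in the wild-type hearts. This ratio is free of library scaling, its log2 means differed by −0.88, and it was chosen after its values were seen, so it carries no test. Because Plin3 was lower and Plin2 higher in every knock-in heart, the ratios had to lie apart and add nothing to those 2 results. Plin5 counts per Plin2 count were 3.36, 1.91 and 2.75 in knock-in and 3.33, 2.85 and 2.50 in wild-type hearts, and overlapped.

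**Figure D2:**
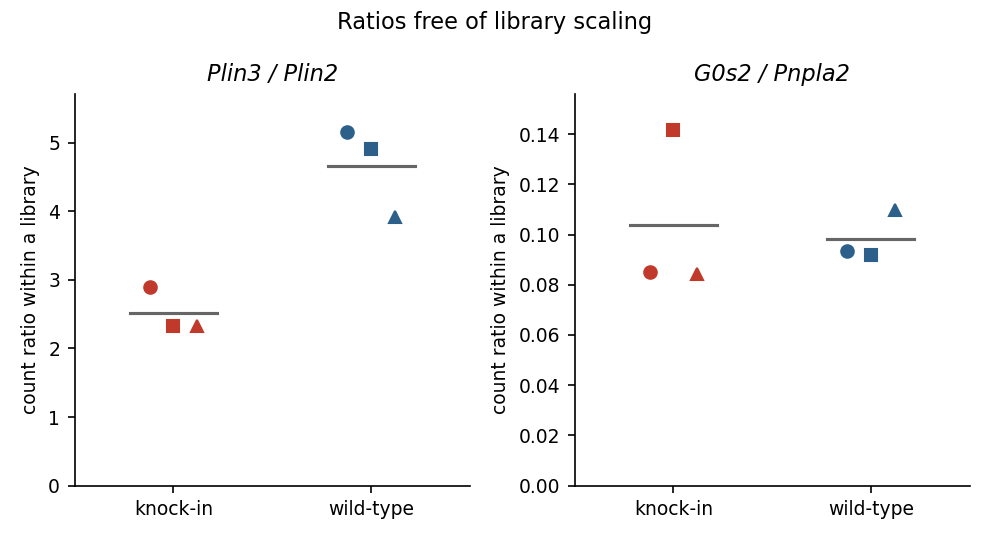
Counts of Plin3 per count of Plin2 (left) and of G0s2 per count of Pnpla2 (right) in each heart, knock-in left of wild-type; circles, squares and triangles are replicates 1, 2 and 3, and bars are means. The Plin3 to Plin2 ratio is at most 2.90 in knock-in and at least 3.91 in wild-type hearts, and had to lie apart because both genes do. The G0s2 to Pnpla2 ratio overlaps, with knock-in replicate 2 the highest at 0.142.

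The CIDE proteins gather at contacts between droplets and move lipid from small droplets into larger ones. Cidea, best known from brown fat, is on chromosome 18 and had 37.0, 31.5 and 32.8 CPM in the knock-in hearts, against 23.2, 21.9 and 21.02 CPM in the wild-type hearts. Each knock-in heart was above all 3 wild-type hearts with a wide gap. The means of 33.8 ± 2.85 CPM in knock-in and 22.01 ± 1.07 CPM in wild-type hearts gave a fold of 1.53 (95% interval 1.29 to 1.83). The log2 difference, 0.62 (SE 0.11), was the largest among the 9 members in size, and Cidea ranked 44 by p among all genes tested. Its unadjusted p was 0.00023 and its edgeR adjusted p 0.0667, just outside the threshold. DESeq2 gave an adjusted p of 0.00365, edgeR gave 0.00147 with no filter on low counts, and 0.0179 without knock-in replicate 2. With any other single heart left out the edgeR adjusted p was 0.159 to 0.288, with library totals it was 0.0905, and limma-voom gave 0.0795. The fits with no filter and without knock-in replicate 2 called 1.46% and 1.34% of all genes they tested. No other gene shares a 31-base word with its longest transcript.

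Cidec, the CIDE protein of large white-fat droplets, had 0, 1 and 2 counts in the knock-in hearts and 3, 1 and 7 counts in the wild-type hearts. Only wild-type replicate 3 exceeded 3 counts, the detection floor, which equals 0.192 to 0.212 CPM in these libraries. Cidec was not tested, and no fold is given. Cideb, the other CIDE gene, had 69, 93 and 51 counts in knock-in and 63, 51 and 43 counts in wild-type hearts. These were fewer than the Cidea counts in every heart. However, 1136 exon bases of Cideb, 76.3% of its exon length, are overlapped by Nop9 on the opposite strand. Without a known strand setting, its counts cannot be firmly set against those of Cidea.

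Cidea is also a gene of adipocytes, so markers of fat attached to the heart were read beside it. Of 7 white adipocyte markers, Plin1, the perilipin of adipocytes, and Lep (leptin) had 0 counts in all 6 hearts. Adipoq (adiponectin) had 1, 0 and 1 counts in knock-in and 1, 0 and 0 in wild-type hearts, and Retn had 0, 0 and 1 in each genotype. Cfd had 8, 0 and 3 counts in knock-in and 1, 0 and 4 in wild-type hearts, and Adrb3 had 0, 1 and 5 counts in knock-in and 1, 0 and 0 in wild-type hearts. Adig, the only one with enough counts to test, had 13, 15 and 3 counts in knock-in and 15, 13 and 19 in wild-type hearts (edgeR adjusted p = 0.723). The 7 together came to 0.885 to 1.43 CPM in knock-in and 0.899 to 1.66 CPM in wild-type hearts. Of 5 brown adipocyte markers, Elovl3, Otop1 and Zic1 had 0 counts in all hearts, and Ucp1 had 1, 0 and 0 counts in knock-in and 0, 0 and 0 in wild-type hearts. Dio2, an enzyme that activates thyroid hormone, had 16, 5 and 19 counts in knock-in and 14, 11 and 16 in wild-type hearts. Together the brown markers came to 0.329 to 1.29 CPM in knock-in and 0.761 to 1.11 CPM in wild-type hearts. Both adipocyte sums overlapped between the genotypes and were far below the Cidea level in every heart.

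Among the lipases, Pnpla2, which starts triglyceride breakdown, lies on chromosome 7 (141455198 to 141460743, plus strand). It had 284.5, 262.9 and 285.5 CPM in the knock-in hearts, against 305.7, 303.7 and 249.9 CPM in the wild-type hearts. The 3 knock-in hearts lay within the wild-type range. Means were 278 ± 12.8 CPM in knock-in and 286 ± 31.7 CPM in wild-type hearts, and the log2 difference was −0.045 (SE 0.10, 95% interval −0.28 to 0.19, edgeR adjusted p = 0.944).

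Lipe, on the same chromosome (25379527 to 25398710, minus strand), had 38.9, 29.0 and 40.9 CPM in the knock-in hearts, against 31.7, 30.4 and 28.8 CPM in the wild-type hearts. Both other knock-in hearts lay above all wild-type hearts, but replicate 2 lay among them. The log2 difference was 0.26 (SE 0.14, 95% interval −0.047 to 0.56, edgeR adjusted p = 0.594). A stretch of 918 exon bases of Lipe, 15.6% of its exon length, is overlapped by 4732471J01Rik on the opposite strand, and without a known strand setting those reads cannot be told apart.

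Mgll, on chromosome 6 (88724412 to 88828360, plus strand), had 143.6, 108.7 and 119.4 CPM in the knock-in hearts, against 129.6, 128.3 and 127.6 CPM in the wild-type hearts. The knock-in values lay on both sides of the tightly grouped wild-type values. The log2 difference was −0.053 (SE 0.11, 95% interval −0.30 to 0.20, edgeR adjusted p = 0.937). The 3 lipases together came to 438 ± 33.9 CPM in knock-in and 445 ± 33.8 CPM in wild-type hearts, a difference smaller than the spread. The 95% intervals of the fold were 0.826 to 1.14 for Pnpla2 and 0.810 to 1.15 for Mgll, so shifts within them are not excluded.

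G0s2, on chromosome 1 (193272161 to 193273217, minus strand), binds Pnpla2 and blocks it. It had 24.2, 37.3 and 24.0 CPM in the knock-in hearts, against 28.6, 27.9 and 27.4 CPM in the wild-type hearts. Knock-in replicate 2 was the highest of all 6 hearts and both other knock-in hearts were the lowest, so the mean difference of 0.029 on the log2 scale (SE 0.17, 95% interval −0.34 to 0.40, edgeR adjusted p = 0.983) describes none of the 3. Without knock-in replicate 2 it was −0.20. The count of the inhibitor per count of its lipase was 0.0852, 0.142 and 0.0842 in knock-in and 0.0936, 0.0918 and 0.110 in wild-type hearts. Permuting genotype over the 6 log2 ratios (exact, two-sided) gave p = 1 (log2 difference 0.037, n = 3 each), where the smallest p that 3 against 3 allows is 0.1. Abhd5, the activator of Pnpla2, had 53.6, 59.7 and 48.4 CPM in knock-in and 49.5, 58.1 and 57.1 CPM in wild-type hearts, with a log2 difference of −0.026 (edgeR adjusted p = 0.978). Abhd5 counts per Pnpla2 count also overlapped, at 0.188, 0.227 and 0.170 in knock-in and 0.162, 0.191 and 0.229 in wild-type hearts. As with Lipe, a part of the exon length of Abhd5, 15.95%, is overlapped by another gene on the opposite strand.

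**Figure D3:**
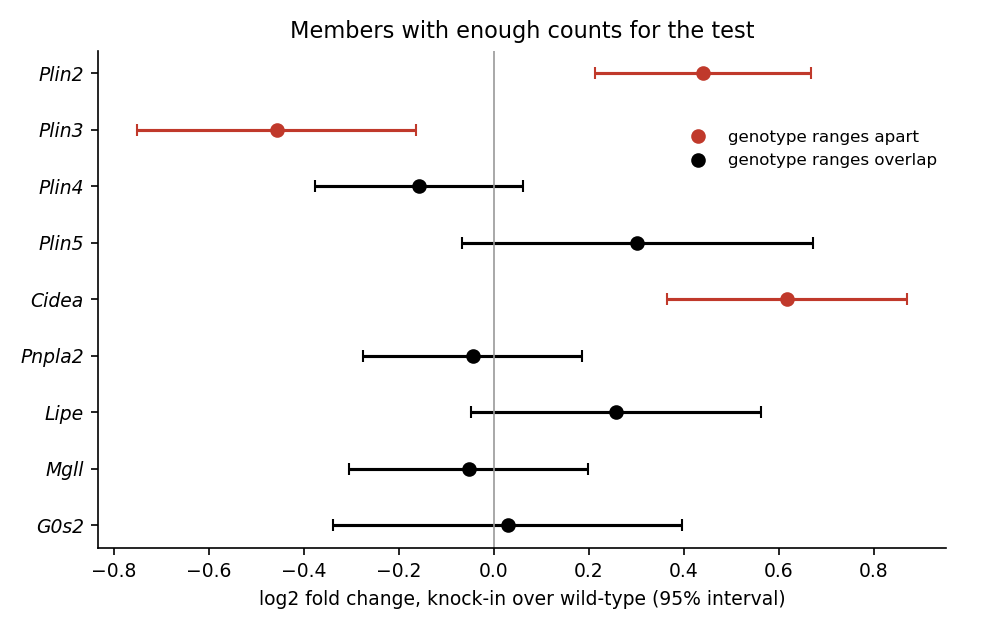
Log2 fold change of each tested gene, knock-in over wild-type, with its 95% interval from the edgeR fit; red marks genes whose genotype ranges are apart, black those that overlap. The intervals of Plin2, Plin3 and Cidea do not reach 0 before adjustment for the 12777 genes tested, and those of the other 6 include 0.

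Per exon length, Pnpla2 was the most abundant of the 10 in both genotypes, at 91.9 ± 4.23 RPKM in knock-in and 94.8 ± 10.5 RPKM in wild-type hearts. Plin5 came next, at 74.4 ± 15.3 RPKM in knock-in and 60.4 ± 10.1 RPKM in wild-type hearts, so the lipase and the perilipin that binds it were the leading pair. Plin3 followed at 39.0 ± 3.13 RPKM in knock-in and 53.6 ± 9.41 RPKM in wild-type hearts, and G0s2 at 32.7 ± 8.69 RPKM in knock-in and 32.1 ± 0.703 RPKM in wild-type hearts. Cidea ranked above Mgll in knock-in hearts, with means of 30.3 and 24.4 RPKM and overlapping values, and below it in wild-type hearts, with means of 19.7 and 25.3 RPKM and no overlap. Plin2 and Plin4 lay next, at 16.8 and 16.7 RPKM in knock-in hearts, where they overlapped, and at 12.4 and 18.7 RPKM in wild-type hearts, where they did not. Lipe was the lowest tested gene, at 6.16 RPKM in knock-in and 5.15 RPKM in wild-type hearts. Cidec was at 0.036 RPKM in knock-in and 0.136 RPKM in wild-type hearts. Neighbours that also overlapped were Pnpla2 and Plin5, Plin3 and G0s2, and G0s2 and Cidea in knock-in hearts, and Plin5 and Plin3, and Cidea and Plin4 in wild-type hearts. RPKM divides by all annotated exon bases of a gene, which are 3512 for Plin2 and 5077 for Mgll. Their longest transcripts have only 1888 and 3991 bases. The places of Plin2, Mgll and the genes near them in this order thus depend on the length used.

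**Figure D4:**
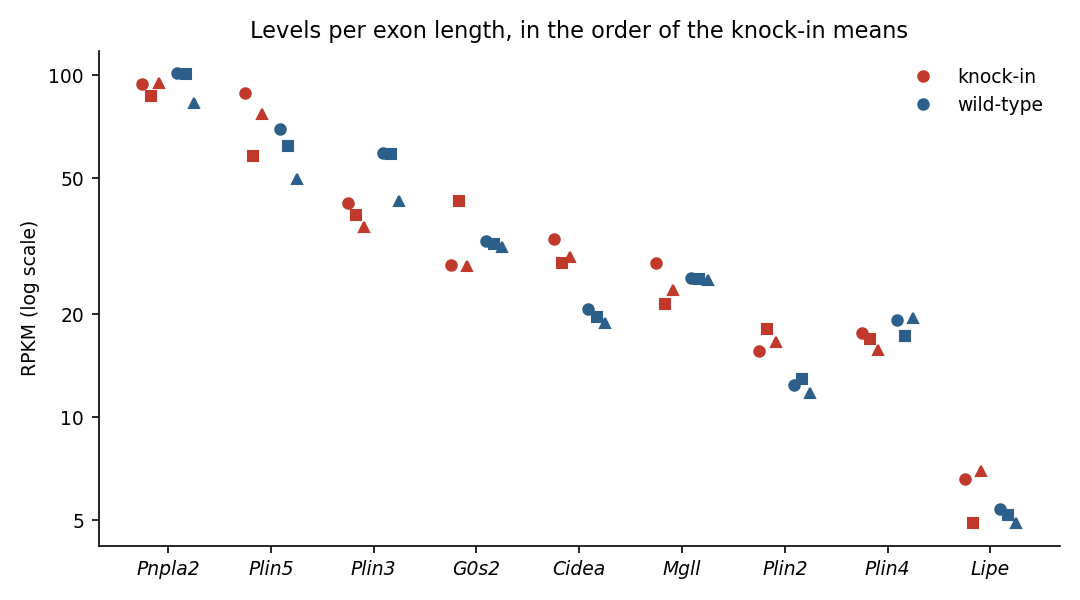
Level per kilobase of exon (RPKM, log scale) of the 9 tested genes in each heart, in the order of the knock-in means, with knock-in hearts left of wild-type hearts; circles, squares and triangles are replicates 1, 2 and 3. Pnpla2 and Plin5 lead in both genotypes and Lipe is lowest; Cidea and Plin2 sit higher, and Plin3 lower, in knock-in than in wild-type hearts.

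The spread between hearts of a genotype differed among the genes. In knock-in hearts the highest value was 1.55 times the lowest for G0s2, 1.52 times for Plin5, 1.41 times for Lipe and 1.32 times for Mgll, against 1.04, 1.40, 1.10 and 1.02 times in wild-type hearts. Knock-in replicate 2 stood at one end of each of these spans. It had the highest G0s2 and Plin2 and the lowest Plin5, Pnpla2, Lipe, Mgll and Cidea of the knock-in hearts. Plin3 and Pnpla2 spread more among wild-type hearts, at 1.17 and 1.09 times in knock-in and 1.39 and 1.22 times in wild-type hearts. Wild-type replicate 3 was the lowest of all 6 hearts for 5 of the 9 tested genes, and its share of counts from mitochondrially encoded genes was 28.0%, against 22.9% to 24.1% in knock-in hearts and 24.3% and 23.4% in wild-type replicates 1 and 2. Beyond leaving out that heart, its part in the results was not tested.

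Markers of several cell types differed between the genotypes, and in bulk tissue fewer cells of a type and less RNA per cell cannot be told apart. The 7 cardiomyocyte markers summed to 68286 to 78185 CPM in knock-in and 64569 to 67863 CPM in wild-type hearts, with 6 positive and 1 negative. Of the 7, 0 were called by edgeR or DESeq2, and 2 were higher at an unadjusted p under 0.05, beside 4.74% of all genes. Set against that sum, Cidea had 47.3, 46.2 and 44.1 counts per 100000 marker counts in knock-in and 34.1, 33.9 and 31.7 in wild-type hearts, and its ranges stayed apart. Plin3 also stayed apart, at 204, 216 and 182 in knock-in and 331, 344 and 244 in wild-type hearts. Plin2, at 70.3, 92.9 and 78.1 in knock-in and 64.2, 70.2 and 62.4 in wild-type hearts, was then only just apart, with a log2 difference of 0.29. The 6 macrophage markers summed to 175 to 192 CPM in knock-in and 248 to 278 CPM in wild-type hearts, with all 6 negative and 1 called (Lyz2, log2 difference −0.60, edgeR adjusted p = 0.0399). At an unadjusted p under 0.05, 4 of the 6 were lower, beside 5.23% of all genes. Ranges were apart for 5 with the knock-in hearts below, beside 7.89%, and DESeq2 called 2, beside 1.07%. The 4 smooth muscle markers summed to 113 to 129 CPM in knock-in and 213 to 244 CPM in wild-type hearts. Of these, 2 were positive and 2 negative, and only Acta2 was called (log2 difference −1.24, edgeR adjusted p = 0.00268). Acta2 had means of 80.1 CPM in knock-in and 189 CPM in wild-type hearts, so the lower sum rests on that gene. Myh11 (log2 difference 0.092), Tagln (0.21) and Cnn1 (−0.29) were not called. The 4 red cell markers summed to 1163 to 1570 CPM in knock-in and 385 to 520 CPM in wild-type hearts, with Hbb-bs, Hba-a1 and Alas2 called higher. Plin2 and Plin3 are expressed in many cell types, macrophages included, and the part of these cell types in their values was not tested. The 5 endothelial markers (425 to 617 CPM in knock-in, 435 to 607 CPM in wild-type hearts) and the 5 fibroblast markers (450 to 537 CPM in knock-in, 470 to 485 CPM in wild-type hearts) overlapped, with 0 called by edgeR or DESeq2 and 0 at an unadjusted p under 0.05. The 4 skeletal muscle markers stayed at or under 1.62 CPM in knock-in and 0.208 CPM in wild-type hearts.

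The rest of the droplet and triglyceride pathway was read from 5 lists with 60 distinct genes. Of these, 55 were tested and 0 were called by edgeR, beside 0.297% of all genes tested. At an unadjusted p under 0.05 there was 1 lower gene among the other lipases and 1 higher gene in fatty acid uptake. The PPAR alpha targets held 4 higher genes, and Fabp3 was both the uptake gene and 1 of those 4. Among all tested genes, 4.74% were higher and 5.23% lower at that p. DESeq2 called 1 gene of the lists, Fabp3, beside 1.07% of all the genes it tested. Of 7 tested among 8 other lipases and lipase regulators, 1 had a positive and 6 a negative log2 difference, with a median of −0.052. The smallest p there was that of Ces1d, a carboxylesterase with triglyceride hydrolase activity, with 95.5, 136.3 and 108.1 CPM in knock-in and 124.9, 152.8 and 151.1 CPM in wild-type hearts (log2 −0.34, SE 0.14, edgeR adjusted p = 0.453). Of 11 tested among 13 genes of triglyceride synthesis, 6 were positive and 5 negative, with a median of 0.0023. Lpin2, a phosphatidate phosphatase, had the smallest p of that list (log2 0.33, adjusted p = 0.627). Of 10 tested among 12 genes of droplet formation and coat, 6 were positive and 4 negative, with a median of 0.037, and the smallest p was that of Tmem159, a partner of seipin (log2 −0.18, adjusted p = 0.671). None of these 3 lists held a gene whose genotype ranges were apart.

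All 9 genes of triglyceride and fatty acid uptake were tested, with 5 positive, 4 negative and a median of 0.090. Fabp3, the fatty acid binding protein of heart muscle, had 4551, 3452 and 4216 CPM in the knock-in hearts, against 2814, 2712 and 2842 CPM in the wild-type hearts. Its ranges were apart, and its log2 difference was 0.55 (SE 0.11, edgeR adjusted p = 0.0847; DESeq2 adjusted p = 0.00337). The 22 PPAR alpha targets, a list that shares Fabp3, Angptl4 and Cd36 with the uptake list, were all tested, with 19 positive and 3 negative and a median of 0.19, and 0 were called. Ranges were apart for 6 of the 22, all with the knock-in hearts above, beside 8.18% of all genes in that direction. Over all tested genes, 48.3% had a positive log2 difference. The summed level of the 22 was 14362 to 15097 CPM in knock-in and 11721 to 12537 CPM in wild-type hearts. Fabp3 alone made up a large part of that gap, with means of 4073 CPM in knock-in and 2789 CPM in wild-type hearts. None of the members was put on the PPAR alpha list, and that choice says nothing of whether PPARs act on them. A part of PPARs in the members' values was not tested.

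**Figure D5:**
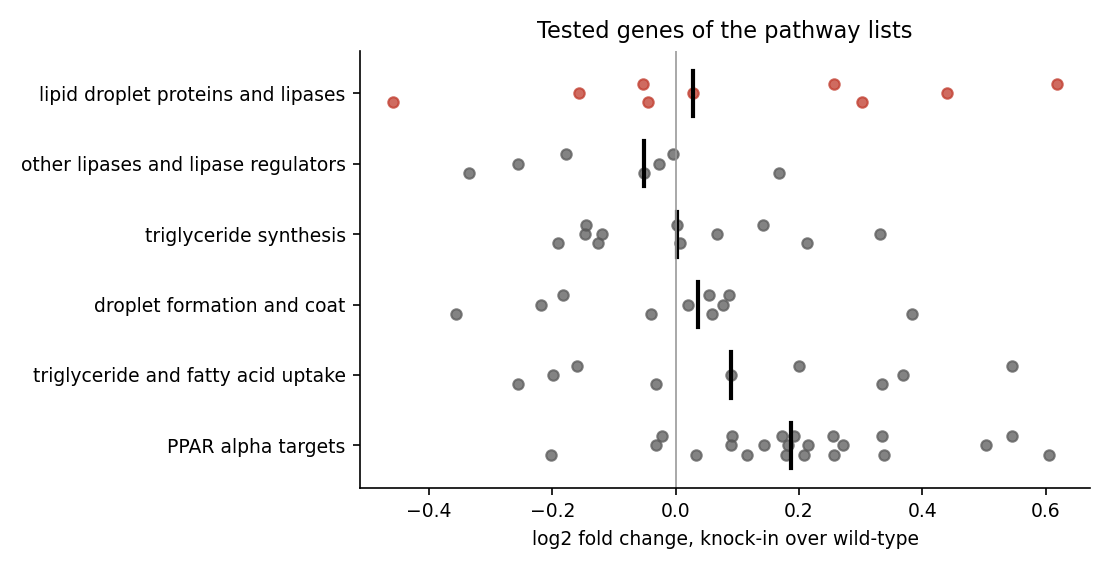
Log2 fold change, knock-in over wild-type, of each tested gene in the 10-gene list (red) and in 5 related lists (grey), with list medians as black bars; Fabp3, Angptl4 and Cd36 appear in both the uptake and the PPAR alpha lists, and Lpl in both the other lipases and the uptake lists. Medians run from −0.052 for other lipases to 0.19 for PPAR alpha targets, and the red points lie on both sides of 0.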

How the data were processed

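Per the labels' protocols, heart RNA was purified on silica columns and sequenced from NEBNext Ultra II libraries. The authors deposited 1 table of whole-number read counts per gene, 1 column per heart, which had not been normalized. STAR, featureCounts, Subread 1.5.2, DESeq2 and GRCm38.p6 appear in the submitters' processing notes without roles. How strand and multiply matching reads were handled is not given in the sources used here.

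GENCODE release M21 (GRCm38) supplied names, positions and union exon lengths for 49056 of 49315 identifiers, and the 259 without a name held 0.0070% of all counts and stayed in the fit. At totals of 14146048 to 15620476, a floor of 3 counts per library equals 0.192 to 0.212 CPM and covers counting error only. Replicates were numbered by accession order, which pairs nothing.

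The fit used edgeR 4.0.16 in R 4.3.3 with filterByExpr by genotype, TMM factors, robust glmQLFit and glmQLFTest. All 12777 tested genes entered the Benjamini-Hochberg adjustment, and called means an adjusted p under 0.05. Standard errors are log2 fold changes over the square root of F, and RPKM is CPM per kilobase of exon. The biological coefficient of variation was 14.0%. The functions were tested on simulated counts. There, 25% of the genes given a log2 change of 0.5 in size were called, 80.3% of those given 1 and 98.5% of those given 2. The changed genes were 200 drawn from all genes with a mean of at least 1 CPM. These shares are therefore not those of the members, whose own chance of being called was not simulated. Alternatives were RLE and library-total scaling, no filter, a minimum mean of 1 CPM, DESeq2 1.42.0, limma-voom (limma 3.58.1), no robust estimation, an adjusted p under 0.1, mitochondrially encoded genes left out, and each library left out.

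The members, the lists and the tests were chosen with earlier results of these data known. The genes named are the 10 members, Txnip, Abhd5, the adipocyte markers, called genes of the other cell-type lists and, in each pathway list, called genes or else the gene with the smallest p. Gpam, Pdk4 and the PPAR alpha targets other than Fabp3 were named after their values were seen. Cideb and the smooth muscle markers Myh11, Tagln and Cnn1 were also named outside that rule, and Lpl, Angptl4 and Cd36 only as genes shared between lists.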

Additional observations from a re-analysis of the deposited data

How the results depend on the processing

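Over all genes, 38 were called, against 317 with no filter, 138 by DESeq2, 18 by limma-voom, 75 at an adjusted p under 0.1, and 5 to 174 with 1 heart left out, the least without wild-type replicate 2 and the most without knock-in replicate 2. The count of called members, 0, became 3 with no filter (Cidea and Plin2 higher, Plin3 lower), 2 by DESeq2 and 1 at an adjusted p under 0.1 (Cidea), and ran from 0 to 1 with 1 heart left out, the 1 being Cidea without knock-in replicate 2. In the pathway lists it became 1 with no filter, by DESeq2 and at an adjusted p under 0.1, and ran from 0 to 1 with 1 heart left out. With no filter the edgeR adjusted p of Plin2 was 0.0331 and that of Plin3 0.00907. The log2 difference of G0s2 turned to −0.014 with library totals and to −0.0023 with limma-voom, and ran from −0.20 to 0.14 with 1 heart left out. Those of Pnpla2 and Mgll ran from −0.13 to 0.0038 and from −0.16 to 0.043, and that of the G0s2 to Pnpla2 ratio from −0.21 to 0.17. The cause was not tested. With 1 heart left out Cidea ran from 0.56 to 0.68 (adjusted p 0.0179 to 0.288), Plin2 from 0.39 to 0.50 (0.116 to 0.514) and Plin3 from −0.60 to −0.38 (0.0976 to 0.691). In all, 114 of 126 values of single members under the alternatives kept their direction and their side of the threshold. Cidec had too few counts to pass the filter and was not tested. No paired analysis was possible because the labels give no replicate numbers or shared litters.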

Other observations

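Gpam, the mitochondrial enzyme that starts glycerolipid synthesis, had the widest span between knock-in hearts of the 55 tested pathway genes and was chosen after its values were seen. It had 46.8, 117.8 and 54.0 CPM in the knock-in hearts, against 52.6, 83.2 and 101.6 CPM in the wild-type hearts, so its highest value was 2.52 times its lowest in knock-in and 1.93 times in wild-type hearts. Its high heart among the knock-ins was replicate 2, the heart with the highest G0s2. Pdk4, which restrains glucose oxidation, had 148.8, 96.8 and 159.1 CPM in knock-in and 60.7, 71.4 and 133.9 CPM in wild-type hearts, overlapping through knock-in replicate 2 and wild-type replicate 3. Of the PPAR alpha targets, Hadha, Acaa2, Slc25a20, Acadl and Acadvl, enzymes and a carrier of mitochondrial fatty acid oxidation, were with Fabp3 the 6 whose knock-in hearts all lay above the wild-type hearts. None of them was called by edgeR, and DESeq2 called 1, Fabp3.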
